A study of Rattus norvegicus with 3 samples.

Results

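Late glia-like interphase radial glia were chosen by their transcript counts of 14 genes, among dissociated cortical cells of rat embryos. Radial glia are the neural stem cells of the ventricular wall, which first make neurons and later change their output to glia. As they approach that change they take up genes that astrocytes go on to use, among them enzymes, transporters and matrix proteins, while genes of the early progenitor state are shut down. Sox2, Pax6, Hes1 and Hes5 mark radial glia as a whole. Aldoc (a glycolytic aldolase of astrocytes), Slc1a3 (the glutamate transporter GLAST) and Mt3 (a brain metallothionein) are the glial genes the rule used.

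A cell was a member if it held at least 5 unique molecular identifiers (UMIs, each standing for 1 captured transcript) of the 4 radial glia genes and at least 5 of the 3 glial genes. It could hold at most 1 UMI of Eomes (intermediate progenitors), at most 2 of Neurod2 and Neurod6 (neurons) and under 10 of Top2a, Cenpf, Mki67 and Ccnb1 (dividing cells). Barcodes needed 1000 detected genes or more, and mitochondrial UMIs of 10% or less, to be kept. This gave 675 members among 15327 kept cells. Of the other cells, 1263 met every limit except the glial one and are called other interphase radial glia, and 2870 passed the same progenitor and neuron limits with 10 or more UMIs of the dividing-cell genes, whatever their glial UMIs.

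The study profiled freshly dissociated cerebral cortex of wild-type rat embryos in 3 droplet libraries, labelled with embryonic days 14, 16 and 18, made from papain-dissociated tissue with the 10x Genomics 3′ kit, version 3.1. The rat strain and the number or pooling of embryos were not given in the sources used here. Parts of the submitters' protocol (culture, multiplexing with oligonucleotides, a sort for live human cells) do not match primary rat tissue, and which of these steps applied is not known. With 1 library per label there was no replicate: library, litter and age cannot be told apart, no test between labels was possible, and each value carries a 95% interval for counting error only (exact Poisson for levels, Clopper-Pearson for shares).

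The libraries held between 62740631 and 80974234 UMIs in 6707 to 7100 barcodes, of which 62.6% to 82.0% were kept. Known stage genes of the members followed another order than the labels, as the values below show, so directions are given between libraries as labelled. With 1 library for each label, a difference between ages, between libraries or from an exchange of labels cannot be told apart. Between 12 and 17 cell barcodes were shared by each pair of libraries, and no shared barcode was a member in both.

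Members were 131 of 4444 kept cells in the library labelled E14 (2.95%, interval 2.47 to 3.49), 146 of 5193 in that labelled E16 (2.81%, 2.38 to 3.30) and 398 of 5690 in that labelled E18 (6.99%, 6.35 to 7.69). Taken as a share of interphase radial glia, the order was different. They made up 131 of 153 such cells labelled E14 (85.6%, 79.0 to 90.8), 146 of 1063 labelled E16 (13.7%, 11.7 to 15.95) and 398 of 722 labelled E18 (55.1%, 51.4 to 58.8). By this rule the libraries labelled E14 and E16 thus held similar shares of members among all cells. In the first, however, nearly every interphase radial glia was a member and in the second a small minority. Radial glia carrying mitotic transcripts followed the same order, with 5 or more glial UMIs in 88.5% (82.2 to 93.2) of 148, 16.7% (15.0 to 18.5) of 1863 and 60.8% (57.4 to 64.1) of 859.

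Depth did not separate the members of the 3 libraries: their median was 11655, 11633.5 and 11859 UMIs and 3690, 3483.5 and 3652 genes in label order. A limit in UMIs still lets deep cells in more easily. When every cell was thinned to 5000 UMIs before the rule was applied, members were 3.10%, 0.423% and 2.31% of kept cells, so the library labelled E14 then ranked above that labelled E18. The shares labelled E14 and E16 were then no longer similar. Neurons, which should hold little of these genes, gave the background: 5 or more glial UMIs occurred in 104 of 1663 neurons labelled E14 (6.25%, 5.14 to 7.53), 0 of 76 labelled E16 (interval up to 4.74%) and 110 of 994 labelled E18 (11.1%, 9.18 to 13.2), at median depths of 14922, 13280 and 12692 UMIs. The members' share of interphase radial glia was above that background in each library.

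Members passed the glial limit by very different margins. Their median sum of Aldoc, Slc1a3 and Mt3 was 19 UMIs in the library labelled E14, 6 in that labelled E16 and 8 in that labelled E18, with highest values of 109, 42 and 67. Cells with 5 to 9 glial UMIs made up 16.8%, 79.5% and 63.8% of members, and cells with 20 or more made up 48.9%, 4.11% and 5.03%. Just inside the limit, at exactly 5 UMIs, stood 7, 48 and 57 cells, and just outside it, at exactly 4, stood 2, 74 and 73. Most members labelled E16 therefore lay close to the limit, in a library where 294 interphase radial glia had no glial UMI at all. These sums were what the rule used and are a description only.

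Which glial gene carried the sum also differed. Aldoc gave 44.6% of the members' glial UMIs in the library labelled E14, 9.40% in that labelled E16 and 49.2% in that labelled E18. Mt3 gave 34.5%, 59.7% and 23.8%, and Slc1a3 gave 20.9%, 30.9% and 27.0%. At least 1 Aldoc UMI was found in 96.9%, 33.6% and 95.7% of members. Slc1a3 was found in 95.4%, 82.9% and 86.2% of members and Mt3 in 91.6%, 89.0% and 65.3%. Among these genes, members labelled E16 thus differed from the others mainly in how few of them had Aldoc. In label order, thinning to 5000 UMIs left Aldoc in 95.3%, 19.4% and 78.5% of members and 24.7%, 18.4% and 29.1% of neurons. The Aldoc share of members labelled E16 was therefore close to that of neurons there. Other interphase radial glia labelled E16 had a lower thinned share, 7.54%. The rule used these genes, so the shares are a description.

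**Figure D1:**
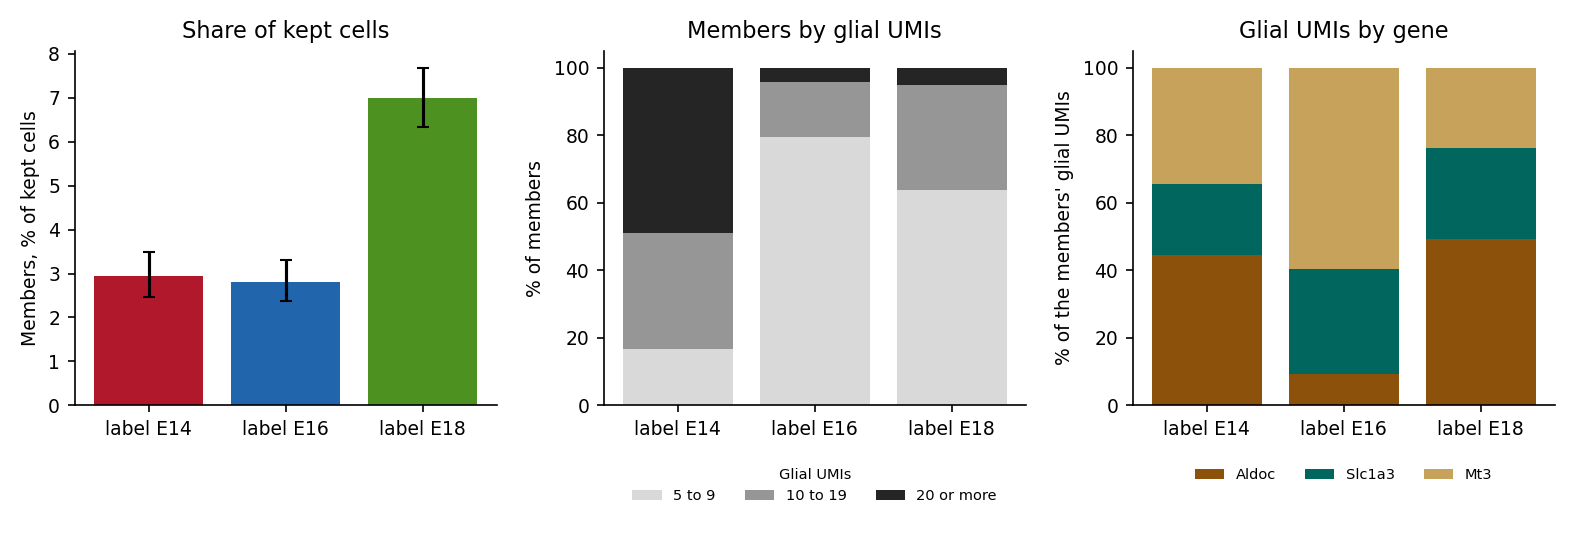
Left, members as a percentage of kept cells in each library with Clopper-Pearson 95% intervals; middle, members by their summed Aldoc, Slc1a3 and Mt3 UMIs; right, the share of those UMIs that came from each gene. In the library labelled E16, 79.5% of members held 5 to 9 glial UMIs and Aldoc gave 9.40% of them, against 16.8% and 44.6% in that labelled E14.

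Mfge8 (a secreted glycoprotein that tags dying cells for engulfment), Fabp7 (the brain lipid-binding protein of radial glia) and Hopx (a small homeodomain protein of late and outer radial glia) also mark the class but were not used by the rule. Levels are given as UMIs per 1000000 UMIs (CPM) summed over the members of a library. Mfge8 stood at 648 CPM (609 to 688) in members labelled E14, 47.9 (39.0 to 58.3) at label E16 and 238 (226 to 251) at label E18. Hopx stood at 433 (401 to 467), 62.7 (52.5 to 74.5) and 201.2 (189.7 to 213.2) CPM. Fabp7 stood at 3216 (3128 to 3305), 802 (764 to 842) and 659.7 (639 to 681) CPM. None of the intervals overlapped between libraries, and members labelled E14 were highest for all 3 markers, while those labelled E16 were lowest for Mfge8 and Hopx and those labelled E18 for Fabp7.

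Set against other interphase radial glia of the same library, the label held less well. In the library labelled E16 Mfge8 was lower in members than in the others (47.9 against 60.0 CPM, log2 ratio -0.32, interval -0.64 to -0.02) and so was Hopx (62.7 against 106 CPM, log2 ratio -0.75, -1.03 to -0.50), whereas Fabp7 was higher (802 against 455 CPM, log2 ratio 0.82). In that labelled E18 all 3 differed little, with log2 ratios of 0.13, -0.17 and 0.16 for Mfge8, Hopx and Fabp7. The 22 other cells labelled E14 are a poor reference, because 17 of them carried markers of another class, mostly the GABAergic genes. Cells meeting the rule in the library labelled E16 thus lacked the Mfge8 and Hopx levels that the label calls for, and are named here by the rule alone.

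Shares of cells gave the same picture at equal depth. After thinning to 5000 UMIs, Mfge8 was detected in 92.97% of 128 members labelled E14, 20.1% of 144 labelled E16 and 68.4% of 396 labelled E18, and without thinning in 98.5% of the first. Among neurons the thinned shares were 5.77%, 2.63% and 6.34%. Hopx was detected in 81.2%, 17.4% and 60.1% of thinned members, against 32.2% of the other interphase radial glia labelled E16 and 18.4% of the neurons there. The Hopx share of members labelled E16 was therefore no higher than that background. Thinning left out 3, 2 and 2 members.

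Markers of other cells were counted in the members before any further comparison. A cell was set aside as marked if it had 50 or more UMIs of Ttr (the transthyretin of choroid plexus), 5 or more of the endothelial and mural, microglial, meningeal or GABAergic list, or over 1% globin UMIs, a limit chosen after the data had been seen. It marked 0 members labelled E14, 6 labelled E16 and 12 labelled E18. Of the last, 8 were marked by Ttr and held 12.7% of all member UMIs of that library. The deepest had 262857 UMIs, 49295 of them Ttr. Summed choroid plexus genes reached 3.14, 247 and 19432 CPM in members and 3.14, 44.8 and 60.4 CPM without the marked cells, with 4 of the 6 genes at 0 in members labelled E14. Globin genes reached 86.1, 7414 and 199 CPM, and 542 CPM in members labelled E16 without the marked cells. Leaving these cells out turned some directions and moved some counts by over 1.5 times in the lists and genes below. For many of these, both values or the turn are given. Neuronal and intermediate progenitor genes were not part of this limit: at least 5 UMIs of the 9 neuronal genes were found in 76.3%, 58.9% and 39.4% of members in label order, and of the 8 intermediate progenitor genes in 46.6%, 39.0% and 35.2%. Their part in the differences between libraries was not tested.

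Doublet scores marked 0, 4 and 3 members. The dissociation stress genes summed to 538, 354 and 470 CPM in members, and the 3 of these genes past the minimum of 20 CPM ran in 3 different orders over the libraries. The order of the sums was that of the astroglial genes below, and the part of stress genes in those differences was not tested. Neuronal genes (a list of 9) summed to 673, 499.5 and 323 CPM.

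Members labelled E14 had the highest levels of most astroglial genes. A list of 40 astroglial genes, chosen with earlier results of these data known, had 23 members of at least 20 CPM on average over the 3 libraries. Of these, 20 were higher in members labelled E14 than at label E16, 15 of them by 2-fold or more, and 1 was lower by 2-fold. Over all 5982 genes past the same minimum, 5.77% were at least 2-fold higher and 2.72% at least 2-fold lower. The median log2 ratio of the list was 1.25, against 0.10 over all genes (1 CPM was added to every level before a ratio was taken). Over the 3 libraries, 13 of the 23 were highest at label E14 and lowest at label E16, as were 31.6% of all genes. In label order 1 of the 23 fell, as did 14.7% of all genes. Between the libraries labelled E18 and E16, 20 of the 23 were higher, 10 by 2-fold, with a median of 0.56 against 0.04, and the share of all genes 2-fold higher was 2.42%. Leaving out the marked cells, 18 were higher, 8 by 2-fold. These comparisons share the library labelled E16 and are not independent of each other.

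Between the libraries labelled E14 and E18 the astroglial list depended on the choroid-marked cells. With every member in, 15 of 23 genes were higher in members labelled E14, 6 by 2-fold and 2 lower by 2-fold, with a median log2 ratio of 0.26; 2.32% of all genes were 2-fold higher and 2.09% lower. Without the marked cells 19 of 23 were higher, 11 by 2-fold and none lower by 2-fold, the median was 0.90, and that of label E18 over label E16 came down to 0.35. Clu (clusterin, a secreted chaperone) showed this most. It stood at 56.0, 6.23 and 263 CPM in label order with all members and at 18.6 CPM at label E18 without the marked cells, so its log2 ratio of label E14 over label E18 went from -2.21 to 1.54. Apoe (the lipid carrier) moved from 90.1 to 28.3 CPM and Sparc (a matrix glycoprotein) from 268 to 112 CPM in the same library.

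**Figure D2:**
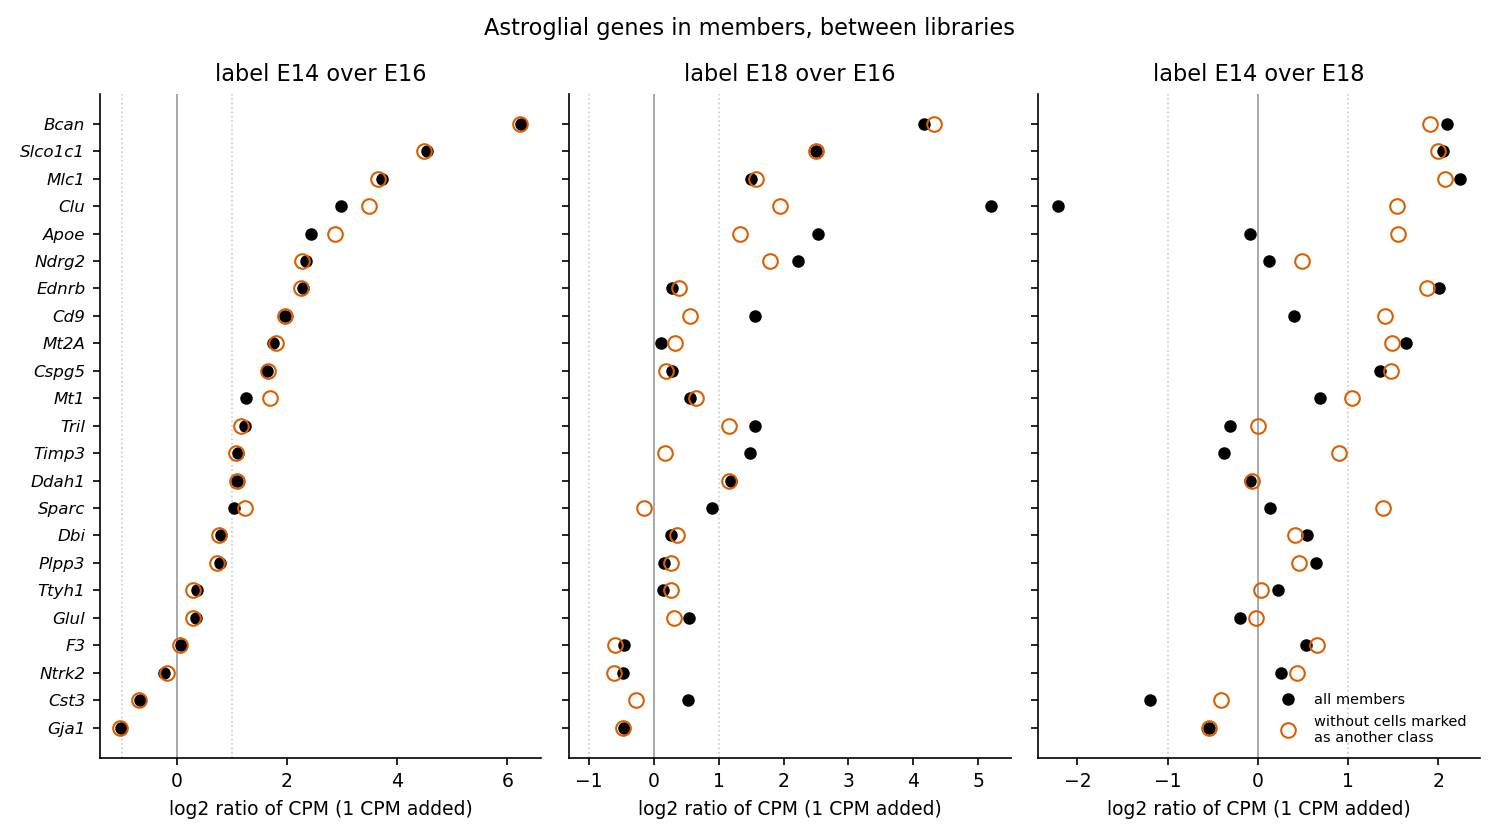
Log2 ratios of CPM between the members of each pair of libraries for the 23 astroglial genes past the minimum, sorted by the first panel, for all members (filled) and without cells marked as another class (open); dotted lines mark 2-fold. Bcan leads the first panel at 6.25, and Clu moves from -2.21 to 1.54 in the third when the marked cells are left out.

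The 10 genes with the highest ratio of label E14 over label E16, with label E18 between, were Tnc, Bcan, Slco1c1, Rlbp1, Insm1, Mfge8, Mlc1, Gabra4, Smim45 and Eepd1. Tnc encodes tenascin-C and Bcan encodes brevican, both extracellular matrix proteins of the glial lineage. Members labelled E14 had 150 CPM of Tnc (131 to 170), those labelled E16 had 2 UMIs, both in 1 cell (0.958 CPM, 0.116 to 3.46), and those labelled E18 had 13.7 CPM (10.8 to 17.1). The log2 ratio of label E14 over label E16 was 6.27 (5.42 to 10.34) and that of label E14 over label E18 was 3.36 (3.08 to 3.84). Bcan stood at 112 CPM (96.1 to 129.6) in members labelled E14, at 1 UMI at label E16 and at 25.4 CPM (21.4 to 29.9) at label E18. Neither gene was close between any pair of libraries.

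The stretch before the start of Tnc, Bcan and Mfge8 is shown because these genes are the leading pair of that ranking and the label marker in it. The sequences are the 250 bases before the gene start from RefSeq on GRCr8, read 5′ to 3′ on the gene's strand: Tnc at chr5:82476132-82476381 (minus strand), Bcan at chr2:175765315-175765564 (minus strand) and Mfge8 at chr1:142489432-142489681 (minus strand). Capitals mark TGGGAA, the core bound by RBPJ, the factor through which Notch acts, on either strand (TTCCCA on the other).
Tnc: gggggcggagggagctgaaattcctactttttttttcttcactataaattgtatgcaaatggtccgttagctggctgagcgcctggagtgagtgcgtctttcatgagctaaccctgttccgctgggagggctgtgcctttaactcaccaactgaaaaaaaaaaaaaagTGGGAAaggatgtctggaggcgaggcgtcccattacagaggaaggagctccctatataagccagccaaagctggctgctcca
Bcan: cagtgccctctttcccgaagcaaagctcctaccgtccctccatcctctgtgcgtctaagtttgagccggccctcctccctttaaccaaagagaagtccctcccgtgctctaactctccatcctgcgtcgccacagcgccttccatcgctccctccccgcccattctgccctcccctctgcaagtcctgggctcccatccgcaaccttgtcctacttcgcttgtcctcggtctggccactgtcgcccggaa
Mfge8: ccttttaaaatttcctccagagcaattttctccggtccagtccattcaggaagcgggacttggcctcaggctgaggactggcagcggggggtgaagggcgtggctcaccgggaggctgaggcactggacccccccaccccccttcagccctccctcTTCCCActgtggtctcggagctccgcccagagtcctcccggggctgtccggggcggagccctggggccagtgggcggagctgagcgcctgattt

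Both strands of these windows were searched for 4 motifs. TGGGAA was found in the windows of Tnc, at base 169, and of Mfge8, at base 157, and not in that of Bcan. Windows were found for 8 of the 10 genes named above, and TGGGAA was in 3 of them (Tnc, Mfge8 and Mlc1), against 21.6% of all 27457 windows. TTGGCA, a half-site of nuclear factor I, was in 1 of the 8 (Mlc1), against 11.7% of all. TTCNNNGAA, the STAT motif, was in none of the 8, against 7.52% of all and the full palindromic site of nuclear factor I was in none, against 0.0401% of all. Of the 23 astroglial genes 18 had a window, with TTGGCA in 4, TTCNNNGAA in 1 and TGGGAA in 4. A match says that these letters occur and no more.

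The other genes of that ranking had varied roles. Slco1c1, a thyroid hormone transporter, stood at 67.3 CPM in members labelled E14, 1.92 at label E16 and 15.4 at label E18. Rlbp1, which binds retinaldehyde, stood at 86.8, 4.79 and 35.8 CPM, and at 22.6 in the last without the marked cells. Mlc1, a membrane protein of astrocyte endfeet, stood at 56.6, 3.35 and 11.2 CPM. Gabra4, a GABA receptor subunit, and Eepd1, an endonuclease, had 42.8, 2.39 and 23.7 CPM and 71.0, 4.79 and 33.6 CPM. Insm1, a zinc finger factor of basal progenitors and not a glial gene, was on the list too, at 124 CPM (107.8 to 143), 7.66 (4.38 to 12.4) and 20.9 (17.3 to 24.96). The intervals of label E16 lay below those of both other libraries for each of these genes. The ranking took genes with label E16 lowest, so this order follows from the choice and is a description.

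Not every astroglial gene ran this way. Gja1, the gap junction protein connexin 43, was lowest in members labelled E14, at 49.7 CPM (39.3 to 61.9), against 100.6 (87.4 to 115) at label E16 and 72.9 (66.1 to 80.3) at label E18. Ntrk2, the receptor for brain-derived neurotrophic factor, stood at 181, 211 and 151 CPM. Ednrb, the endothelin receptor, stood at 134, 26.8 and 32.8 CPM, and Mt2A, a metallothionein, at 156, 45.5 and 49.2, so for these genes members labelled E16 and E18 lay close together and those labelled E14 apart. Genes of mature astrocytes were low: Gfap stood at 3.77, 0.958 and 0.701 CPM and Aqp4 at 1.89, 0 and 0.175. Aldh1l1, a folate enzyme of astrocytes, had 22 UMIs in members labelled E14 (13.8 CPM, 8.67 to 20.9) and none in the others (upper limits 1.77 and 0.646 CPM). No UMI of Ntsr2 was found in any member.

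Of the outer radial glia list of 10 genes, which in primates mark a stem cell detached from the ventricle, 4 were past the minimum: Hopx, Tnc, Ptprz1 and Ptn. All were highest in members labelled E14. Ptprz1, a receptor phosphatase, stood at 479 (446 to 514), 251 (230 to 273) and 161.8 (151.5 to 172.5) CPM, and its ligand Ptn at 2969 (2885 to 3055), 1522 (1469 to 1575) and 1496 (1464 to 1528). With all members in, Ptn levels at labels E16 and E18 overlapped in their intervals. For neither gene were members labelled E16 then the lowest, unlike Hopx and Tnc. Without the marked cells 3 of the 4 genes, all but Ptprz1, were higher at label E18 than at label E16. The order of Ptn between these libraries thus turned. Of the 6 below the minimum, Il6st was the most abundant in members labelled E14, at 21.4 CPM.

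Genes of the early progenitor state were high in members labelled E16. Hmga2, a chromatin protein of early stem cells, stood at 13.8 CPM (8.67 to 20.9) in members labelled E14, 230.4 (210.2 to 252) at label E16 and 20.3 (16.8 to 24.4) at label E18. Ccnd1, cyclin D1, stood at 57.8, 303 and 55.6 CPM, and the intervals of label E14 and label E18 overlapped for both genes. Igf2bp2, an RNA-binding protein, stood at 35.2, 133 and 92.0 CPM. Lin28b, a repressor of let-7 maturation, had 0, 8.14 and 1.40 CPM and was below the minimum. Of 7 list members past the minimum among 13, 6 were lower in members labelled E14 than at label E16, 5 by 2-fold, with a median log2 ratio of -1.89, beside 2.72% of all genes 2-fold lower. For label E18 over label E16 6 of 7 were lower, 2 by 2-fold, with a median of -0.23, beside 0.652% of all genes 2-fold lower, and leaving out the marked cells gave 3 by 2-fold and a median of -0.49. Crabp2, which carries retinoic acid, stood at 10.1, 165 and 205 CPM with all members and at 10.1, 143 and 49.1 without the marked cells, so that its order between the last 2 libraries turned.

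Hmga2 and Ccnd1 differed less between members and other interphase radial glia of the same library than between libraries. Hmga2 was 230.4 against 185 CPM in the library labelled E16 and 20.3 against 14.4 in that labelled E18, and Ccnd1 was 303 against 253 and 55.6 against 50.6 CPM. The list median of members over the others was -0.11 and 0.13 in these libraries, and -0.04 and -0.09 without the marked cells. Single genes lay further apart without the marked cells, such as Hmga1 (a log2 ratio of -0.59 at label E16) and Crabp2 (-0.67 at label E18).

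**Figure D3:**
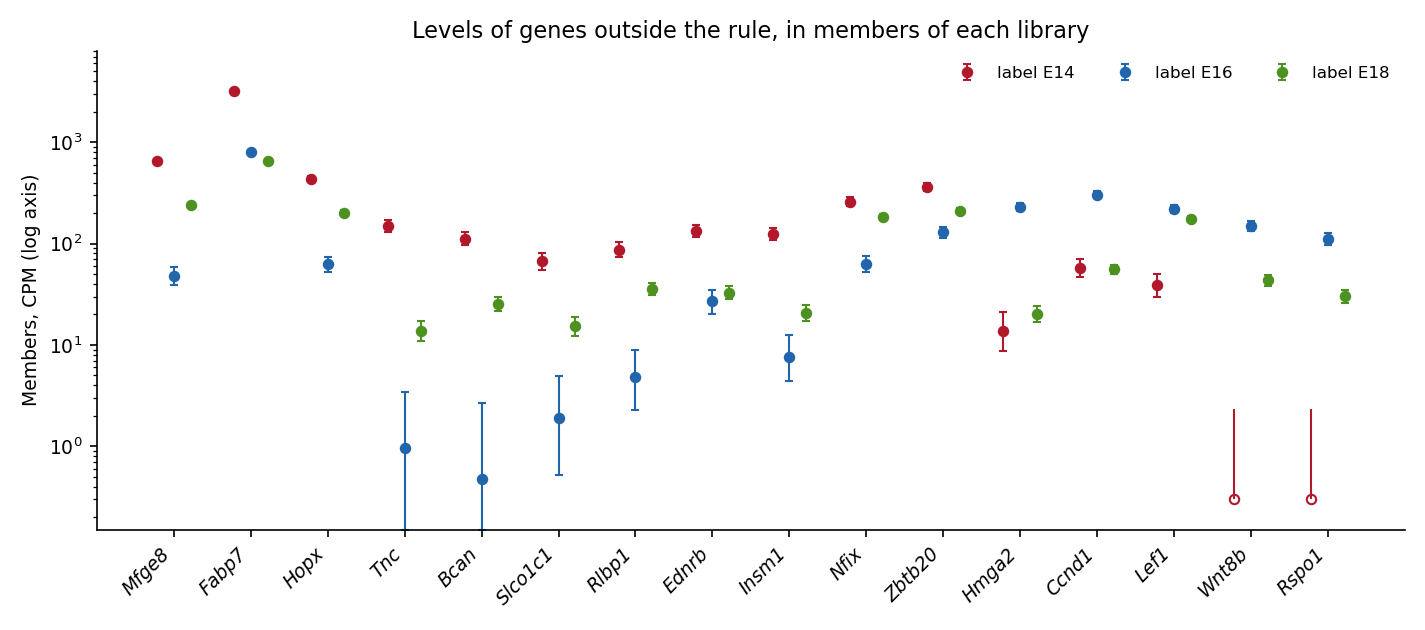
Levels of 16 genes outside the rule in the members of each library, in CPM on a log axis, with exact Poisson 95% intervals; open circles stand for 0 UMIs, with a line to the upper limit. Members labelled E16 are lowest for Mfge8, Hopx, Tnc and Bcan and highest for Hmga2, Ccnd1, Wnt8b and Rspo1.

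Most transcription factors tied to the onset of glial fate were higher in members labelled E14 than at label E16. Nuclear factor I proteins and Sox9 start the glial programme, and Zbtb20 favours astrocytes. Nfix stood at 259.7 CPM (235 to 286), 63.2 (52.9 to 75.0) and 185 (174 to 196) in label order, and Zbtb20 at 363 (334 to 394), 129 (114 to 145) and 210.0 (198 to 222). Nfia and Nfib differed less, at 856, 637 and 916 CPM and 962, 529 and 933 CPM, and Sox9 stood at 424, 302 and 425 CPM. Without the marked cells the order of Nfib at labels E14 and E18 turned. Other interphase radial glia labelled E18 then stood at 965 CPM of Nfib, and members there lay above them (log2 ratio 0.13). Pou3f2, a POU factor of neural progenitors, stood at 264, 77.6 and 113 CPM. Among 12 of 13 list members past the minimum, 11 were higher in members labelled E14 than at label E16, 5 by 2-fold (Nfic, Nfix, Zbtb20, Nr2f1 and Pou3f2), with a median log2 ratio of 0.90, where 5.77% of all genes were 2-fold higher. Between label E18 and label E16, 10 were higher, 3 by 2-fold, with a median of 0.62, where 2.42% of all genes were 2-fold higher. The median of label E14 over label E18 was 0.08. For this list members labelled E14 and E18 were alike in their median and those labelled E16 stood below both.

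Signals that act on radial glia did not move as 1 group. For Notch, which keeps radial glia undifferentiated, the median log2 ratio of 8 genes past the minimum (of 15) was 0.05 for label E14 over label E16 and 0.18 for label E18 over label E16, and Notch1 itself stood at 348, 209 and 265 CPM. Lfng, a Notch-modifying glycosyltransferase, was the one with the widest spread, at 44.0, 11.5 and 21.0 CPM. For BMP and its Id targets the medians of 8 genes were 0.11 and 0.07, the second -0.00055 without the marked cells. Id3 stood at 139, 197 and 62.7 CPM and Id1 at 56.6, 50.8 and 25.2, the last 5.10 without the marked cells.

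Genes of the FGF pathway were mixed. The list holds receptors (Fgfr1, Fgfr2 and Fgfr3) and the binding protein Fgfbp3 beside targets, so its counts do not measure targets alone. Of 9 list genes past the minimum (of 12), 8 were higher in members labelled E14 than at label E16, with a median log2 ratio of 0.53 against 0.10 over all genes, and by 2-fold 1 was higher and 1 lower, beside 5.77% and 2.72% of all genes. Against label E18, 8 were higher, 3 by 2-fold, with a median of 0.56 against 0.05, beside 2.32% of all genes. Etv5, an ETS factor induced by FGF, stood at 55.3 (44.4 to 68.2), 23.0 (17.0 to 30.5) and 23.3 (19.5 to 27.6) CPM. Dusp6, a phosphatase that damps the same signal, ran the other way at 5.03 (2.17 to 9.91), 51.2 (42.0 to 61.9) and 6.13 (4.27 to 8.53). Etv5 and Dusp6 are textbook targets of 1 pathway, yet Etv5 set members labelled E14 apart from the others. Dusp6, whose intervals at labels E14 and E18 overlapped, set those labelled E16 apart.

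Listed genes of the Wnt pathway were low in members labelled E14. Those past the minimum include DNA-binding factors of the pathway (Lef1, Tcf7l1 and Tcf7l2), so they do not measure targets alone. Lef1, a factor that acts with beta-catenin, stood at 39.0 CPM (29.9 to 49.97), 218 (198 to 239) and 175 (165 to 187), and Axin2, a feedback inhibitor, at 22.0 (15.3 to 30.6), 93.4 (80.7 to 107) and 49.1 (43.5 to 55.2). All 4 list members past the minimum (of 10: Axin2, Lef1, Tcf7l1 and Tcf7l2) were at least 2-fold lower in members labelled E14 than at label E16, with a median log2 ratio of -1.78, and at least 2-fold lower than at label E18, with a median of -1.37. Over all genes the shares 2-fold lower were 2.72% and 2.09%. Of the 4 genes 3 and 2 were 2-fold lower without the marked cells, with medians of -1.74 and -1.37. The median of label E18 over label E16 was -0.20.

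Ligands of the same pathway made up the other end of the ranking. Among the 10 genes with the lowest ratio of label E14 over label E16 were Wnt8b, Rspo1, Rspo3, Rspo2, Zic4, Tmem132c, Hmga2, Sulf2 and Grb10. Wnt8b, a Wnt of the medial cortical margin, had no UMI in members labelled E14 (upper limit 2.32 CPM), 148 CPM (132 to 166) at label E16 and 43.3 (38.1 to 49.0) at label E18. Rspo1, which enhances Wnt signals, had none in members labelled E14, 110.6 CPM (96.8 to 126) at label E16 and 30.3 (26.0 to 35.2) at label E18, where 15.3 remained without the marked cells. Zic4, a zinc finger factor of the dorsal midline, stood at 3.77, 131 and 76.6 CPM. Sulf2, a sulfatase of heparan sulfate, stood at 3.14, 62.7 and 23.7 CPM, and at 11.4 in the last without the marked cells.

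Cells with genes of the cortical hem, the Wnt-producing edge of the cortex, were found among the members of both libraries with high Rspo1. At least 3 UMIs of the 6 hem genes (Wnt3a, Wnt2b, Rspo1, Rspo3, Lmx1a and Wnt8b) were found in 0 of 131 members labelled E14 (upper limit 2.78%), 32 of 146 labelled E16 (21.9%, 15.5 to 29.5) and 35 of 398 labelled E18 (8.79%, 6.20 to 12.02). The corresponding shares of other interphase radial glia were 16.1% (13.8 to 18.7) and 3.40% (1.71 to 5.99) in the last 2 libraries. The list summed to 0.629, 418 and 131 CPM in members and 0.629, 363 and 79.9 without the marked cells, with 5 of the 6 genes at 0 in members labelled E14. Which stretch of cortex was dissected is not given in the sources used here, and its part in these differences was not tested.

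Within the library, few genes separated members from other interphase radial glia. Over 5995 genes of at least 20 CPM on average, 36 labelled E16 were at least 2-fold higher in members (0.601%) and 15 lower (0.250%), and 79 labelled E18 were higher (1.32%) and 42 lower (0.701%). At label E14, with its 22 mostly non-glial reference cells, 20.9% were higher and 10.3% lower, and the median of all genes was 0.24, so nothing is read from that library's contrast alone. Without the marked cells, in either class, 42 genes labelled E16 were higher and 11 lower, and 19 labelled E18 were higher and 22 lower. No gene was 2-fold higher in all 3 libraries (0.00%), and 5 were 2-fold lower (0.0834%): Gad2, Ina, Cnr1, LOC100912227 and LOC120093218. The first is the GABA-synthesizing enzyme, and Ina and Cnr1 are neuronal genes. These counts need the contrast with the 22 cells labelled E14, and without the marked cells 0 genes were higher and 2 lower, of which Ina was 1. The genes of the rule itself were left out of these counts. The glial limit acts on the same cells, so these counts are a description.

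With the libraries labelled E16 and E18 taken alone, 5 genes were 2-fold higher in members in both (0.0834%): Wnt8b, Rspo1, Rspo2, Timp3 and Lmo2, named after their values were seen. Wnt8b stood at 148 against 73.2 CPM in the library labelled E16 and 43.3 against 11.3 in that labelled E18, and Rspo2 at 77.6 against 33.3 and 21.6 against 6.28 CPM. Timp3, a protease inhibitor, stood at 14.8 against 4.77 and 43.5 against 3.45 CPM, but at 17.3 in members labelled E18 without the marked cells. The 7 genes lower in both (0.117%) added the mitotic genes Tpx2 and Ccnb2 to the 5 above. With the marked cells left out 4 genes were higher in both (Wnt8b, Timp3, Slc7a3 and Rassf10) and 4 were lower (Ina, Tpx2, Ccnb2 and Sez6l2), likewise named after their values were seen. Rspo2 kept log2 ratios of 1.42 and 1.24 in these libraries, but its mean level over the libraries was then below the minimum of 20 CPM, with 11.4 CPM in members labelled E18.

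Ranked by the smallest of their 3 ratios over the other interphase radial glia, the first 12 genes were Slc7a3, Veph1, Megf10, Etv5, Zic4, Hdac9, Rspo2, Ntrk2, Tpbg, Zbtb20, Prdm16 and Tnc. This ranking also uses the 22 cells labelled E14, and for Rspo2 the level there was 0.629 against 0 CPM, so the values below are those of the other libraries. Tnc rests on 2 UMIs at label E16, with an interval of -1.70 to 5.01 for its log2 ratio there. Veph1, a membrane-associated protein of the ventricular zone, stood at 16.8 against 5.47 CPM in the library labelled E16 and 18.9 against 9.73 in that labelled E18, log2 ratios of 1.46 (0.98 to 2.23) and 0.89 (0.37 to 1.59). Megf10, an engulfment receptor of astrocytes, had log2 ratios of 1.38 (0.96 to 1.98) and 0.86 (0.43 to 1.38). Slc7a3, a transporter of cationic amino acids, had 1.34 (0.76 to 2.32) and 0.91 (0.44 to 1.51). Ntrk2 had 0.70 (0.55 to 0.86) and 0.73 (0.54 to 0.94), and Prdm16, a factor of radial glia, had 0.69 (0.42 to 0.98) and 0.64 (0.41 to 0.90). The intervals of Veph1, Megf10, Slc7a3, Ntrk2 and Prdm16 lay above 0 in both libraries. These genes were ranked on the same ratios, so their direction follows from the choice and is a description.

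The astroglial list as a whole was somewhat higher in members. Of 22 genes past the minimum 17 were higher in members than in the others labelled E16, 2 of them by 2-fold (0.601% of all genes were), with a median log2 ratio of 0.40 against 0.05 over all genes. At label E18 21 of 22 were higher, with a median of 0.67 against 0.02, and 6 were higher by 2-fold (Apoe, Clu, Sparc, Cst3, Timp3 and Cd9), against 1.32% of all genes. Without the marked cells 21 of 22 were still higher at label E18, with a median of 0.49, but 4 by 2-fold (Apoe, Sparc, Bcan and Timp3), and Clu, Cst3 and Cd9 were no longer among them. At label E16 without the marked cells, the neuronal genes (9 listed) were shifted as well: 6 of 7 past the minimum were higher in members, Stmn2 by 2-fold, with a median of 0.50. Their median at label E18 was -0.64, where 6 of 7 were lower. Of members labelled E16, 58.9% (50.5 to 67.0) had at least 5 UMIs of these genes, against 35.2% (32.1 to 38.4) of the others, and the part of neuronal transcripts was not tested. The median of the list with nuclear factor I and Zbtb20 was 0.25 and 0.01 in these libraries, and 0.26 and 0.13 without the marked cells. Zbtb20 stood at 129 against 47.7 CPM in the library labelled E16 and 210.0 against 134 in that labelled E18.

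Compared with radial glia carrying mitotic transcripts, members had fewer transcripts of mitosis. At label E14, 0.378% of 6090 genes were at least 2-fold higher in members and 4.75% lower. At label E16 the shares were 1.00% higher and 2.99% lower, and at label E18 they were 1.07% and 3.55%. All 14 genes of the mitosis list past the minimum were 2-fold lower in members in each library, with medians of -3.99, -3.44 and -3.66, which follows from the rule's limit on mitotic UMIs. S-phase genes, which the rule left alone, were not lower: their medians were 0.08, 0.60 and 0.49. The astroglial medians were 0.21, 0.29 and 0.23.

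The 21 S-phase genes, such as those of the replication machinery, summed to 1942 CPM (1874 to 2012) in members labelled E14, 2848 (2776 to 2921) at label E16 and 2636 (2594 to 2679) at label E18. All 21 were lower in members labelled E14 than at label E16, 3 by 2-fold, with a median log2 ratio of -0.61 against 0.10 over all genes, of which 2.72% were 2-fold lower. Against label E18, 20 were lower, 1 by 2-fold, with a median of -0.46 against 0.05 over all genes, of which 2.09% were 2-fold lower. Without the marked cells all 21 were lower than at label E18, 4 by 2-fold (Cdc6, Dtl, Cdt1 and Ccne1), with a median of -0.67. The sum at label E18 was then 3010 CPM, above the 2848 at label E16, so the order of these libraries turned. Ccnd2, cyclin D2, stood at 118, 247 and 465 CPM in label order, and Btg1, which restrains division, stood at 356, 92.9 and 216. Cdkn1c, a brake on the cell cycle, stood at 4.40, 39.3 and 174 CPM with all members and at 11.01 in the last without the marked cells.

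Enzymes of fatty acid oxidation, which astrocytes and late radial glia use, were slightly higher in members labelled E14. All 12 list genes past the minimum (of 15) were higher than in members labelled E16, 4 by 2-fold (Acaa2, Acadl, Eci1 and Eci2), with a median log2 ratio of 0.76 against 0.10 over all genes, of which 5.77% were 2-fold higher. Acadl, a long-chain acyl-CoA dehydrogenase, stood at 95.6 (81.0 to 112), 20.6 (14.9 to 27.7) and 36.5 (31.7 to 41.8) CPM. Glycolysis genes moved less and the other way, with 10 of 12 lower and a median of -0.37. For label E18 over label E16 the medians were 0.17 and -0.04. Cholesterol and lipid genes had medians of 0.61 and -0.17 in these comparisons.

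Since members labelled E14 held more glial UMIs, levels were also compared among cells with equal numbers of them, without the marked cells. Among members with 5 to 9 glial UMIs (22, 110 and 248 cells in label order) Mfge8 stood at 568 (474 to 675), 52.0 (41.5 to 64.4) and 244 (227 to 263) CPM and Hopx at 346 (273 to 432), 73.1 (60.5 to 87.5) and 239.5 (222 to 258). Among those with 10 to 19 (45, 24 and 119 cells) Mfge8 stood at 569, 40.2 and 278 CPM. Hopx stood at 421 (366 to 481), 25.6 (10.3 to 52.7) and 229.8 (207 to 254) CPM there. The order of the libraries was therefore the same at equal glial UMIs for both markers, while Hopx at label E16 was lower in the second of these bins than in the first. The astroglial median of label E14 over label E16 was 1.04 and 1.14 in these bins, and that of label E18 over label E16 was 0.35 and 0.56. Hmga2 stood at 17.7, 227 and 16.2 CPM in the lower bin and 5.92, 281 and 25.7 in the higher.

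Some genes climbed with the glial UMIs inside a library. Tnc stood at 31.0 CPM (12.5 to 64.0) in members labelled E14 with 5 to 9 glial UMIs, 79.0 (56.4 to 108) in those with 10 to 19 and 222 (192 to 256) in those with 20 or more, and in the library labelled E18 at 10.1, 13.8 and 80.7 CPM. Fabp7 stood at 1299, 1783 and 4565 CPM across these bins labelled E14 and at 659, 1169 and 3349 across those labelled E16, but only at 728, 789 and 972 across those labelled E18. Zbtb20 stood at 164, 330 and 434 CPM in the first library and 193, 287 and 374 in the last. The bins are cut on the rule's own genes, so these gradients are a description, and the top bin labelled E16 holds 6 cells.

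**Figure D4:**
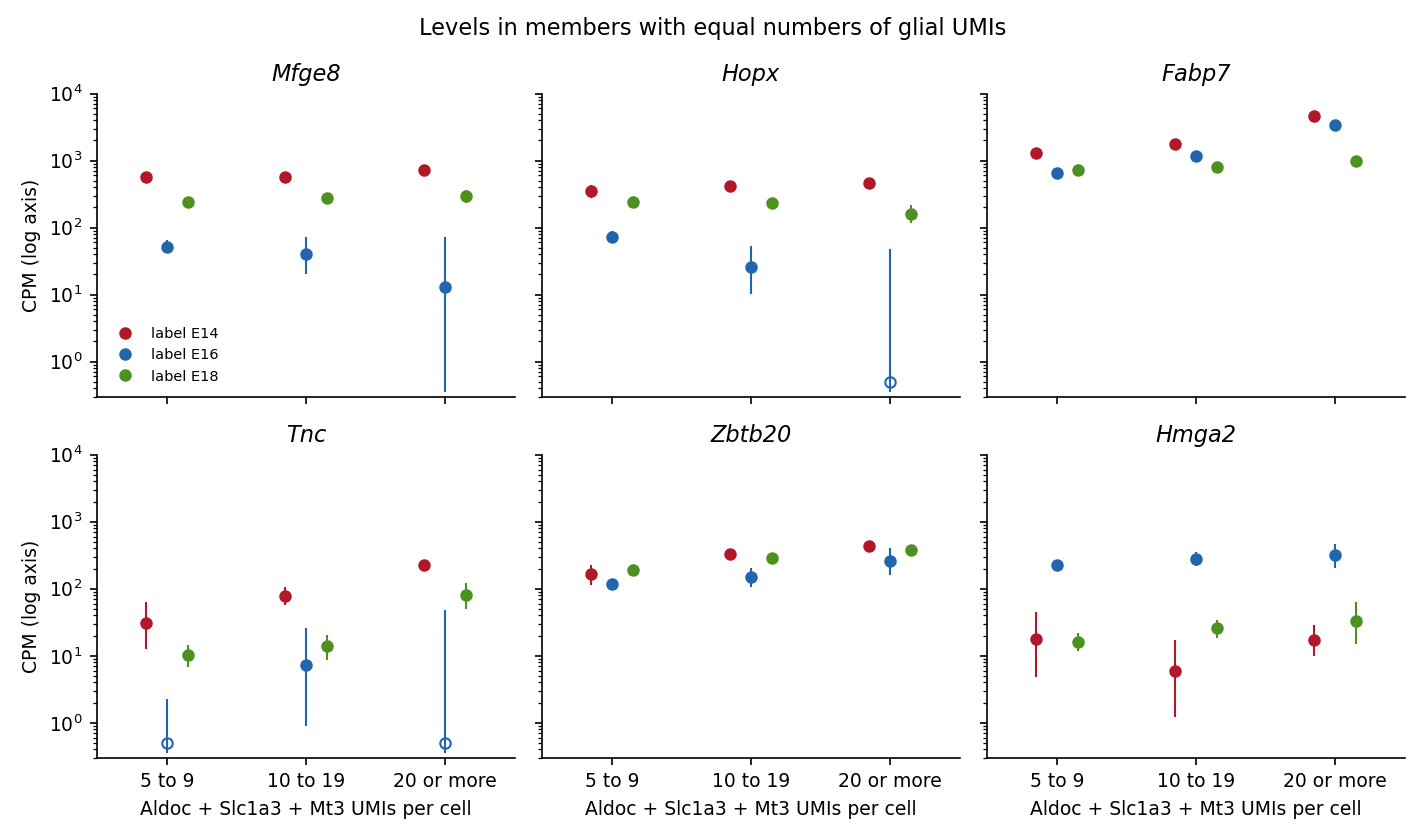
CPM on a log axis of 6 genes in members with 5 to 9, 10 to 19 and 20 or more glial UMIs, by library, without cells marked as another class; lines are exact Poisson 95% intervals and open circles stand for 0 UMIs. Mfge8 stays near 568 CPM in both lower bins labelled E14 and at 52.0 or below labelled E16, while Tnc climbs from 31.0 to 222 CPM labelled E14.

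Members fell into unlike cells according to which glial gene had the most UMIs. Without the marked cells and ties, Aldoc led in 73, 10 and 224 members in label order, Slc1a3 in 19, 43 and 75, and Mt3 in 31, 77 and 41. In the library labelled E16, Rspo1 and Rspo3 were highest in Slc1a3-led members, 12 of which (27.9%) had at least 3 UMIs of the hem genes. Rspo1 stood there at 222 CPM (189 to 260, 157 UMIs in 10 cells), against 27.4 in Mt3-led members and none in the 10 Aldoc-led ones, and Rspo3 at 186, 2.19 and 0 CPM in the same order. Mt3-led members had the most Fgf17, an FGF of the rostral patterning centre, at 97.6 CPM (78.4 to 120, 89 UMIs in 12 cells) against 1.42 in Slc1a3-led ones, and Kitlg, the ligand of the Kit receptor, at 102 (82.3 to 125) against 17.0 CPM. Rspo1 and Fgf17 each came from few cells.

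The 10 Aldoc-led members labelled E16 differed from the other members of that library in Hopx and Hmga2. Hopx stood at 275 CPM (204 to 364) in them, against 35.4 (22.9 to 52.3) in Slc1a3-led and 36.2 (24.9 to 50.8) in Mt3-led members. Hmga2 stood at 33.7 (12.4 to 73.4), against 285 (247 to 327) and 248 (217 to 282). Hopx in Aldoc-led members was 493 (448 to 542) at label E14 and 276 (257 to 296) at label E18, so these 10 cells overlapped the latter and lay below the former. Their Mfge8, at 50.6 CPM (23.1 to 96.0), was below that of Aldoc-led members of both other libraries, at 576 and 262 CPM, and so was their Fabp7, at 472 against 3227 and 781. Wnt8b stood at 214 (151 to 293) in these 10 cells, so they differed from Aldoc-led members labelled E14, in which no Wnt8b UMI was found. Of the 10, 5 had at least 3 UMIs of the hem genes. That count rests on Wnt8b alone, as they held no UMI of Wnt3a, Wnt2b, Rspo1, Rspo3 or Lmx1a. At label E18 Hopx stood at 276, 169 and 116 CPM in members led by Aldoc, Slc1a3 and Mt3, and Id3, a BMP target, at 17.3, 131 and 174. In that labelled E14 the split mattered less for Hopx, at 493, 352 and 351 CPM.

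**Figure D5:**
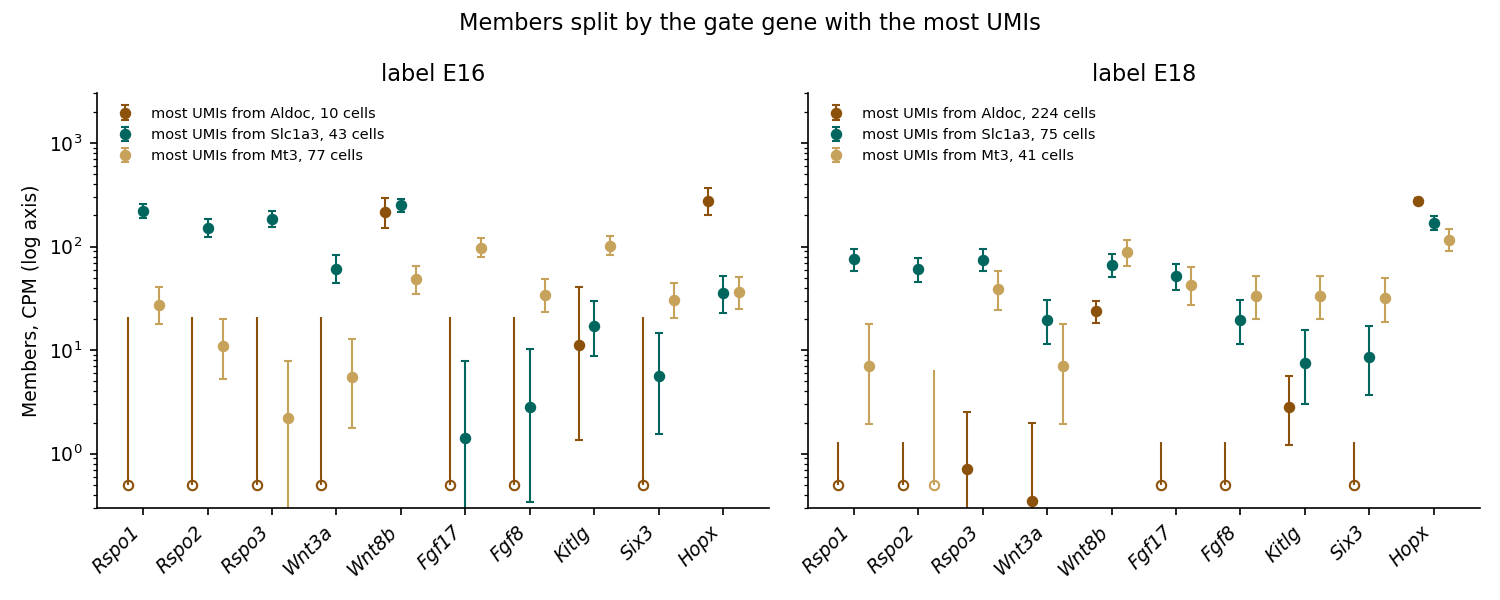
CPM on a log axis of 10 genes in members split by the rule's glial gene with the most UMIs, for the libraries labelled E16 and E18, without ties or cells marked as another class; lines are exact Poisson 95% intervals and open circles stand for 0 UMIs. In the library labelled E16 Rspo1 is at 222 CPM in Slc1a3-led and Fgf17 at 97.6 CPM in Mt3-led members, and Hopx at 275 CPM in the 10 Aldoc-led ones.

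Some members carried genes of neuron production, counted by a limit chosen after the data had been seen. At least 5 UMIs of Neurog2, Insm1 and Gadd45g, which drive progenitors toward neurons, were found in 37 of 131 members labelled E14 (28.2%, 20.7 to 36.8), 17 of 140 labelled E16 (12.1%, 7.24 to 18.7) and 58 of 386 labelled E18 (15.0%, 11.6 to 18.99), without the marked cells. The shares among other interphase radial glia were 14.7% (12.4 to 17.2) labelled E16 and 23.5% (18.8 to 28.6) labelled E18. Members labelled E14, with the highest astroglial levels, thus also held the largest share of such cells. Their median glial sum was 13 UMIs, against 23 in the other members of that library.

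Those members shared further genes. Dll1, the Notch ligand of cells leaving the stem state, stood at 32.9 CPM in them and 0.905 in the rest labelled E14, at 71.7 and 15.6 labelled E16 and at 29.8 and 1.69 labelled E18. Hes6, an inhibitor of Hes1, stood at 482 and 186, 372 and 209, and 441 and 192 CPM. Id3 was lower in them labelled E14 (32.9 against 186 CPM) and labelled E18 (11.6 against 66.6) but higher labelled E16 (307 against 166). Aldoc stood at 669 against 1040 CPM and Fabp7 at 1865 against 3810 labelled E14. The gaps were smaller labelled E18, with Aldoc at 362 against 396 CPM and Fabp7 at 692 against 775. Labelled E16, Aldoc stood at 44.4 against 59.3 CPM and Fabp7 at 577 against 879.

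Genes of the oligodendrocyte lineage were rare. At least 3 UMIs of Olig1, Olig2, Pdgfra, Sox10 and Cspg4 were found in 4 members labelled E14 (3.05%), 1 labelled E16 and 8 labelled E18 (2.01%). Olig1 stood at 32.1, 4.31 and 1.58 CPM, and 1 cell gave 45.1% of its UMIs in the first library. Egfr, which rises in gliogenic progenitors, had 3 UMIs in members labelled E14 and none elsewhere.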

How the data were processed

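The deposited files hold raw UMI counts per gene and cell barcode for 3 libraries, made by the authors with Cell Ranger 6.0.1 per the file headers on mRatBN7.2 per the submitters' processing notes. Counts were used as deposited. Barcodes were kept from 1000 detected genes and up to 10% mitochondrial UMIs, and members were taken by the rule given above. The members and gene lists were chosen with earlier results of these data known. UMIs of a class were summed per library and given per 1000000 (CPM). Ratios are log2 with 1 CPM added, for genes of at least 20 CPM on average over the groups compared, and 2-fold was the size called. With 1 library per label no test was made. Named genes are the 12 with the highest and the 12 with the lowest least extreme ratio over other interphase radial glia across the 3 libraries, the 10 with the highest and the 10 with the lowest ratio of label E14 over label E16 with label E18 between, and listed genes by role; of the 12 lowest only those past 2-fold are named above, and some named genes are not reported here. Doublets were scored with scanpy 1.11.5 and kept. Member libraries summed to 1590513, 2087924 and 5705842 UMIs in label order. Promoter windows came from RefSeq on GRCr8, a later build than that of the counts. Computing used numpy 2.4.6, pandas 2.3.3, scipy 1.17.1 and matplotlib 3.10.9 under Python 3.11.15. Alternatives tried were other limits, thinning to 5000 UMIs, removal of doublets, 5 CPM added, no minimum, and 3 choices added after the data were seen.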

Additional observations from a re-analysis of the deposited data

Results flagged for a closer look

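Among 221 genes examined, 4 lay on opposite sides, by a log2 ratio of 0.5 or more each way, between members and other interphase radial glia in the libraries labelled E16 and E18, and these differences were not tested. Dlx2, a factor of GABAergic progenitors, had a log2 ratio of 1.40 in the library labelled E16 and -2.36 in that labelled E18, and Bcl11b, a factor of deep-layer neurons, had 0.52 and -0.57. Mt1, a metallothionein, had -0.50 in the library labelled E16 and 0.82 in that labelled E18. Ttr had -1.62 and 4.96, and 8 members labelled E18 had 50 or more Ttr UMIs. Without the cells marked as another class the ratios at labels E16 and E18 were 1.93 and 0 for Dlx2, 0.54 and 0.018 for Bcl11b, -0.35 and 0.48 for Mt1, and 0.93 and -0.40 for Ttr, so none of the 4 then lay 0.5 or more apart from 0 on both sides. Other genes then reached that size on both sides, among them Stmn2 (1.38 and -1.75), Cdkn1c (0.84 and -0.91) and Id1 (0.68 and -0.54). Opposite directions were therefore not limited to the marked cells.

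Some barcodes left out for too few genes or too many mitochondrial UMIs met every other limit of the rule: 10 of 2656 labelled E14, 0 of 1514 labelled E16 and 4 of 1247 labelled E18.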

How the results depend on the processing

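The order of the shares at labels E14 and E18 turned when cells were thinned to 5000 UMIs (3.10% and 2.31%). Leaving out cells marked as another class turned the direction of genes such as Clu, Crabp2, Ptn and Nfib between libraries. It also turned the order of the summed S-phase genes at labels E16 and E18. No list median or count listed next changed sign, and the astroglial median of label E14 over label E16 (1.25) stayed within 0.84 to 1.85 in all of them. The members' shares of kept cells (2.95%, 2.81% and 6.99% in label order), the astroglial medians of label E18 over label E16 (0.56) and of label E14 over label E18 (0.26), and the counts of genes 2-fold higher (0) or lower (5) than in other interphase radial glia in every library moved as follows; the cause was not tested except where fewer cells or genes entered by construction. A glial limit of 10 UMIs gave shares of 2.45%, 0.578% and 2.53%, a median of label E14 over label E18 of 0.041, and 6 genes higher and 8 lower. Thinning to 5000 UMIs gave 0.423% and 2.31% labelled E16 and E18, a median of 0.88 and 8 genes higher. Under 3 mitotic UMIs the shares were 2.03%, 1.64% and 4.48%, the median of label E18 over label E16 was 1.23 and 16 genes were lower. Aldoc and Slc1a3 alone gave 0.790% and 5.85% labelled E16 and E18, a median of label E14 over label E18 of 0.56, and 2 genes higher and 10 lower. Without scored doublets the median of label E18 over label E16 was 0.94 and 8 genes were lower. Adding 5 CPM left 3 lower. No minimum gave a median of label E14 over label E18 of 0.51, with 18 higher and 18 lower. Of the choices added after the data were seen, leaving out cells marked as another class gave medians of 0.35 and 0.90 and 2 lower, weighting cells equally gave 0.54 for label E14 over label E18 with 2 higher and 8 lower, and using the libraries labelled E16 and E18 alone gave 5 higher. Low counts limit the genes near 0 and the split of 10 Aldoc-led members labelled E16. No paired analysis was possible because each label has 1 library.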
